A study of Mus musculus with 8 samples.

Results

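Genotype dependence of the response to side-stream cigarette smoke (CS) was measured as a difference of log2 ratios: CS over control in α7E260A:G mice minus CS over control in α7G mice, taken once within the 4 male libraries and once within the 4 female ones. A transcript was a member when its CS response had the opposite sign in the 2 genotypes, or was present in one and lost in the other, in both sexes. Of 7190 transcripts measured, 187 were members, or 2.6%, in 6 classes. The study asked how the α7 nicotinic acetylcholine receptor, a ligand-gated calcium channel encoded by Chrna7, modifies the response of the distal lung to smoke. The RNA-Seq libraries came from the distal lung of adult mice of mostly C57BL/6 strain. α7G mice carry a tau-GFP reporter behind the normal Chrna7 gene (Chrna7-IRES-tauGFP). α7E260A:G mice carry the same reporter and the E260A substitution in the receptor (Chrna7-E260A-IRES-tauGFP), so that the reporter is present in controls as well. Mice of each genotype breathed CS for 4 months, 5 days weekly, or stayed unexposed. The 4 groups thus had 2 libraries each (8 in all), one from males and one from females. How many mice a library pooled is not given in the sources used here, so that the p-values measure the spread between these libraries, male against female included.

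The α7 receptor is best known outside the nervous system for damping the release of inflammatory cytokines by macrophages. In the distal lung it is found on alveolar macrophages (AM), club cells of the small airways and surfactant-producing alveolar type 2 (ATII) cells. The E260A substitution restricts the signalling of the receptor through calcium.

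Reads counted on coding sequence (CDS) came to between 8020726 and 10944100 per library, and levels are given as RPM, the CDS reads of a transcript scaled to the total of its library. Chrna7 itself had 0 counts in 7 libraries and 4 counts in the male α7E260A:G control, and 3 counts correspond to between 0.274 and 0.374 RPM, so a response of Chrna7 was not detectable at this depth. The cells had been depleted of CD45+ leukocytes after lavage, yet the 23 AM markers summed to between 25442 and 38755 RPM in α7G and between 43613 and 79552 RPM in α7E260A:G libraries. The 16 ATII markers summed to between 21342 and 32451 RPM in α7G and between 5318 and 15933 RPM in α7E260A:G. In bulk samples fewer cells of a type and less RNA per cell cannot be told apart. The libraries also differed in how counts followed CDS length. The deviation of the male α7E260A:G control from the mean of the libraries grew by 0.41 on the log2 scale per doubling of CDS length, the steepest of the 8, and the lowest slope was that of the male α7G library after CS, which changed by -0.24. Each result is therefore given for each sex, and class counts also with this dependence removed.

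The fit across all transcripts called no interaction. With edgeR's quasi-likelihood test and Benjamini-Hochberg adjustment at 0.05, 0 of 7190 transcripts differed in their CS response between the genotypes, or 0%, and the smallest adjusted p was 0.997. At an unadjusted p under 0.05 there were 102 transcripts, or 1.42%, of which 62 had the higher response in α7E260A:G and 40 the lower one. DESeq2's Wald test on the same counts called 3, all with the lower response in α7E260A:G, or 0.0417%. The members below are described by their values in each library.

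The 3 transcripts called by DESeq2 were Hsd11b1, Inmt and Gpihbp1. Hsd11b1 encodes the reductase that regenerates active glucocorticoid inside cells (chromosome 1, 195047824 to 195090248, mm9). Its level was 55.9 RPM in control and 125 RPM after CS in male α7G, 61.6 and 109 RPM in female α7G, 107 and 77.1 RPM in male α7E260A:G, and 85.0 and 74.8 RPM in female α7E260A:G. CS libraries were higher than controls in both α7G sexes and lower in both α7E260A:G sexes. The edgeR log2 difference was -1.52 ± 0.28 (SE), the DESeq2 adjusted p was 0.0042, and the adjusted p in the 15 other edgeR fits lay between 0.173 and 1.00.

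Inmt encodes an N-methyltransferase of indoleamines that is abundant in lung stroma (chromosome 6, 55120620 to 55125037). Its level was 242 RPM in control and 878 RPM after CS in male α7G, 250.0 and 936 RPM in female α7G, 717 and 543 RPM in male α7E260A:G, and 361 and 582 RPM in female α7E260A:G. Both α7G libraries after CS exceeded the other 6, while the α7E260A:G pair was lower after CS in males and higher in females. The edgeR log2 difference was -1.97 ± 0.38 (SE), and the DESeq2 adjusted p was 0.0077.

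Gpihbp1 anchors lipoprotein lipase on capillary endothelium (chromosome 15, 75427088 to 75428642). Its level was 26.2 RPM in control and 68.7 RPM after CS in male α7G, 30.2 and 63.4 RPM in female α7G, 28.9 and 25.3 RPM in male α7E260A:G, and 27.4 and 24.7 RPM in female α7E260A:G. The 2 α7G libraries after CS lay above the other 6, which spanned 24.7 to 30.2 RPM. The edgeR log2 difference was -1.61 ± 0.33 (SE), and the DESeq2 adjusted p was 0.018. Its adjusted p in the 15 other edgeR fits again lay between 0.173 and 1.00, as did that of Inmt.

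**Figure D1:**
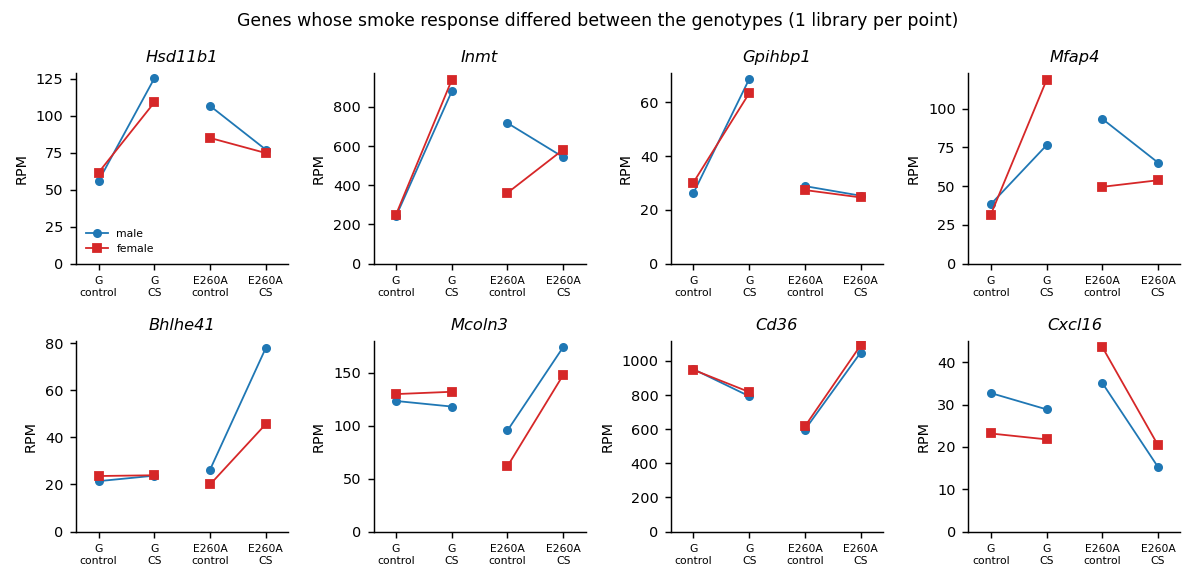
RPM (vertical axes, from 0) of 8 transcripts in each library, with controls and CS libraries of the same genotype and sex joined (blue circles male, red squares female). Hsd11b1, Inmt, Gpihbp1 and Mfap4 were higher after CS in α7G, where Gpihbp1 reached 68.7 RPM in males, while Bhlhe41, Mcoln3 and Cd36 were higher after CS in α7E260A:G and Cxcl16 lower.

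Of the 18 fibroblast and smooth muscle markers, 7 passed the abundance filter, and of these 4 had the lower response in α7E260A:G in both sexes and 1 the higher one. Mfap4, a glycoprotein of elastic fibers, stood at 38.4 RPM in control and 76.5 RPM after CS in male α7G, 31.7 and 119 RPM in female α7G, 93.5 and 65.2 RPM in male α7E260A:G, and 49.6 and 53.9 RPM in female α7E260A:G. The α7G levels after CS were higher than the α7G controls in both sexes, while the α7E260A:G pair was lower after CS in males and higher in females. The log2 difference was -1.50 in males and -1.77 in females on the RPM scale. The edgeR estimate, which used TMM scaling, was -1.91 ± 0.42 (SE). The median log2 difference of the 7 was -0.92 (-1.36 in males and -0.48 in females), against 0.25 over all transcripts, of which 19.2% were lower in both sexes. With CDS length removed, the median was -1.33 and 6 of 7 were lower, against 30.2%. The summed level of the 18 markers went from 1237 to 1640 RPM with CS in male α7G and from 1102 to 1811 RPM in female α7G, but from 3081 to 1693 RPM in male and from 932 to 1174 RPM in female α7E260A:G, so the male α7E260A:G control stood apart from the other controls. Its part in the list's median was not tested. Of 26 tested transcripts of elastic fibers, laminins and proteoglycans, 4 were lower and 1 higher in both sexes, with a median of 0.14 (-0.50 in males and 0.60 in females). With CDS length removed, 10 were lower and 0 higher, and the median turned to -0.42 (-0.82 in males and 0.12 in females). The fibrillar collagens had a median of 0.66 (-0.05 in males and 1.36 in females). With CDS length removed it was 0.11 (-0.54 in males and 0.77 in females).

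The opposite-sign classes held 12 transcripts. A response here meant at least 1.3-fold, with 0.5 RPM added, in opposite directions in the 2 genotypes and the same way in both sexes. In 9 of them, or 0.125% of those tested, CS libraries were lower than controls in α7G and higher in α7E260A:G: Mxi1, Zfp326, Osbpl3, Cdkl2, Wdr78, Ncoa4, Ly75, Pdk1 and Tapt1. In 3, or 0.0417%, the pattern was turned around: Ifi27l2a, S100a4 and Ly6c2. Under TMM scaling, which moves the median difference over all transcripts from 0.25 to 0.04, the split was 1 (Zfp326) against 8.

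Osbpl3, an oxysterol-binding protein of the plasma membrane and endoplasmic reticulum, had one of the largest differences among the first 9. Its level was 65.8 RPM in control and 33.2 RPM after CS in male α7G, 68.3 and 50.2 RPM in female α7G, 54.7 and 100.5 RPM in male α7E260A:G, and 37.3 and 57.5 RPM in female α7E260A:G. Both α7G libraries were lower after CS and both α7E260A:G libraries higher. The log2 difference was 1.85 in males and 1.06 in females, and 1.46 and 0.58 in the same order with CDS length removed.

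Ly75 encodes DEC-205, an endocytic receptor of dendritic cells and other antigen-presenting cells (chromosome 2, 60130160 to 60221360). Its level was 178 RPM in control and 113 RPM after CS in male α7G, 153 and 112 RPM in female α7G, 289 and 500.2 RPM in male α7E260A:G, and 207 and 289 RPM in female α7E260A:G. The 4 α7E260A:G libraries lay above all 4 α7G libraries, and in both sexes the gap was wider after CS. The log2 difference was 1.44 in males and 0.93 in females, and 0.89 and 0.25 in the same order with CDS length removed.

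Pdk1 encodes a kinase that restrains pyruvate dehydrogenase and is a target of hypoxia-inducible factor. Its level was 35.8 RPM in control and 23.2 RPM after CS in male α7G, 31.5 and 23.5 RPM in female α7G, 19.1 and 28.8 RPM in male α7E260A:G, and 13.8 and 18.9 RPM in female α7E260A:G. Both α7G libraries were lower and both α7E260A:G libraries higher after CS, and with CDS length removed the log2 difference of Pdk1 was 1.08 and 0.65 in males and females. Mxi1, a MAX partner that opposes MYC, had log2 differences of 1.15 in males and 1.15 in females, and Ncoa4, the receptor for autophagy of ferritin, of 0.97 in males and 1.13 in females. Wdr78, an intermediate chain of axonemal dynein, had 0.97 in males and 1.41 in females. After removal of CDS length the differences were 1.17 and 1.10 for Mxi1, 0.69 and 0.76 for Ncoa4 and 0.61 and 0.96 for Wdr78, in males and females. All 9 kept the sign of both sex-specific differences with CDS length removed, but none of the 9 then met the opposite-response threshold in both genotypes, and their median CDS length was 1823 nucleotides against 1547.5 over all transcripts.

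Ifi27l2a, an interferon-induced mitochondrial protein, stood at 25.9 RPM in control and 43.6 RPM after CS in male α7G, 29.6 and 47.0 RPM in female α7G, 17.8 and 9.60 RPM in male α7E260A:G, and 71.6 and 33.5 RPM in female α7E260A:G. S100a4, a calcium-binding protein of motile leukocytes and fibroblasts, stood at 207 RPM in control and 296 RPM after CS in male α7G, 196 and 329 RPM in female α7G, 188 and 110.3 RPM in male α7E260A:G, and 467 and 266 RPM in female α7E260A:G. In both the female α7E260A:G control was the highest of the 8 libraries, and within that genotype the CS library was the lower one in both sexes. The log2 difference was -1.60 in males and -1.75 in females for Ifi27l2a and -1.28 in males and -1.56 in females for S100a4, and with CDS length removed -0.96 and -1.06 for the former and -0.70 and -0.94 for the latter.

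Ly6c2, a marker of inflammatory monocytes, stood at 52.6 RPM in control and 87.3 RPM after CS in male α7G, 54.1 and 74.8 RPM in female α7G, 38.6 and 27.2 RPM in male α7E260A:G, and 169 and 45.0 RPM in female α7E260A:G. Its counts can be shared with the near-identical Ly6c1 and are uncertain for that reason. The log2 difference of Ly6c2 was -1.23 in males and -2.36 in females, and -0.77 and -1.89 in the same order with CDS length removed. These 3 transcripts were short, with a median CDS of 304 nucleotides, and all 3 kept both signs with CDS length removed, at which point Ly6c2 met the rule for a response lost in α7G instead. The 19 monocyte, C1q and interstitial macrophage markers summed to between 2149 and 3469 RPM in α7G and to between 2238 and 3239 RPM in α7E260A:G, where the CS library was the lower one in both sexes. The part of these cells was not tested.

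**Figure D2:**
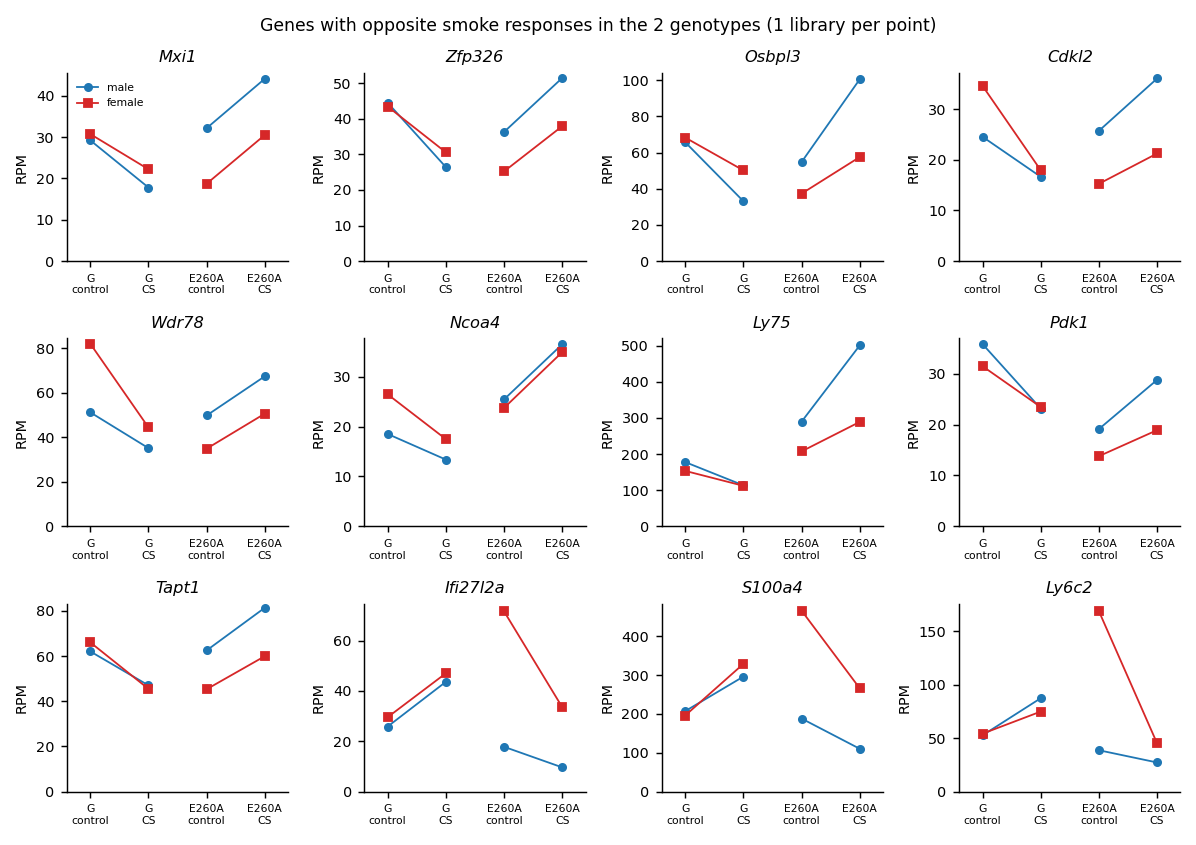
RPM (vertical axes, from 0) of the 12 opposite-response transcripts in each library, with control and CS libraries of the same genotype and sex joined (blue circles male, red squares female). In the first 9 panels CS is the lower end of the line in α7G and the upper end in α7E260A:G, and in Ifi27l2a, S100a4 and Ly6c2 the reverse holds.

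A response present in α7G and lost in α7E260A:G was the most frequent class. It required at least 1.5-fold in α7G in the same direction in both sexes and a change within 1.2-fold in both α7E260A:G sexes. Of these transcripts 140, or 1.95%, were lower after CS in α7G, and 20, or 0.278%, were higher. Under TMM scaling the split was 73 lower against 41 higher. Over all transcripts, the 10th to 90th percentile of the log2 response ran from -1.02 to 0.70 in male and -0.69 to 0.41 in female α7G. In α7E260A:G it ran from -0.51 to 0.46 in males and from -0.27 to 0.58 in females. The part of this spread in the class counts was not tested. The 5 with the largest smaller-of-the-sexes difference among the 140 were Zfp518a, Ccdc108, Tgfbr1, Dnahc12 and Cspp1.

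Tgfbr1, the type I receptor for TGF-β, stood at 93.2 RPM in control and 29.6 RPM after CS in male α7G, 69.9 and 32.3 RPM in female α7G, 146 and 124 RPM in male α7E260A:G, and 63.3 and 65.7 RPM in female α7E260A:G. CS levels were below the control in both α7G sexes, while the α7E260A:G pairs stayed within 1.2-fold. The log2 difference was 1.41 in males and 1.16 in females, and 1.22 and 0.86 in the same order with CDS length removed. Dnahc12, an axonemal dynein heavy chain, had log2 differences of 1.15 in males and 1.86 in females, and Mrc1, the mannose receptor of macrophages, of 0.85 in males and 0.69 in females. These were smaller with CDS length removed, at 0.48 and 0.96 for Dnahc12 and 0.34 and 0.07 for Mrc1 in males and females.

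The 140 were long transcripts: their median CDS was 3079.5 nucleotides, and 128 of them exceeded the median of all transcripts. With CDS length removed, 15 remained in this class and 129 kept both signs. Among the 15 were Tgfbr1, Zfp518a, Btla, Xiap and Dusp16. The 20 transcripts higher after CS in α7G were short, with a median CDS of 517 nucleotides, and 3 of them, C1ra, Mtx1 and Wfdc10, remained with CDS length removed.

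The 5 with the largest smaller-of-the-sexes difference among the 20 were Gpihbp1, Sfta2, Ctla2a, Sepw1 and Wfdc10. C1ra, a protease of the classical complement pathway, stood at 31.2 RPM in control and 57.1 RPM after CS in male α7G, 32.2 and 61.9 RPM in female α7G, 63.2 and 61.7 RPM in male α7E260A:G, and 44.3 and 53.0 RPM in female α7E260A:G. The log2 difference was -0.90 in males and -0.68 in females. Wfdc10 was low in abundance, at 4.09 RPM in control and 14.8 RPM after CS in male α7G, 5.66 and 11.4 RPM in female α7G, 15.2 and 16.7 RPM in male α7E260A:G, and 54.4 and 62.3 RPM in female α7E260A:G, and its α7E260A:G levels exceeded the α7G levels before CS. Ly6c1, of the same family as Ly6c2, belonged to the 20 with log2 differences of -1.04 in males and -0.58 in females, and Tspo, a mitochondrial outer membrane protein, with -1.14 in males and -0.40 in females. These were, with CDS length removed, -0.58 and -0.11 for Ly6c1 and -0.81 and -0.08 for Tspo in males and females.

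A response present in α7E260A:G and lost in α7G was found for 15 transcripts, of which 13, or 0.181%, were higher after CS in α7E260A:G and 2, or 0.0278%, lower, against 3 and 3 under TMM scaling. Bhlhe41, a repressor of the circadian feedback loop, had the largest difference when the smaller of the sexes is taken. It stood at 21.4 RPM in control and 23.7 RPM after CS in male α7G, 23.6 and 23.9 RPM in female α7G, 26.3 and 78.0 RPM in male α7E260A:G, and 20.0 and 45.7 RPM in female α7E260A:G. The log2 difference was 1.40 in males and 1.15 in females.

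Mcoln3 and Mcoln1 encode mucolipins, calcium channels of endosomes and lysosomes. Mcoln3 stood at 123 RPM in control and 118 RPM after CS in male α7G, 129.9 and 132 RPM in female α7G, 95.5 and 174 RPM in male α7E260A:G, and 61.8 and 148 RPM in female α7E260A:G. Mcoln1 stood at 49.8 RPM in control and 54.7 RPM after CS in male α7G, 53.6 and 54.8 RPM in female α7G, 48.0 and 91.6 RPM in male α7E260A:G, and 38.7 and 62.1 RPM in female α7E260A:G. In both the α7G levels were within 1.2-fold of their controls and the α7E260A:G levels were higher after CS. The log2 differences with CDS length removed, in males and females, were 0.72 and 0.92 for Mcoln3 and 0.50 and 0.26 for Mcoln1. Tbc1d2, a regulator of Rab GTPases, had log2 differences of 1.04 in males and 0.65 in females, and 0.64 and 0.17 in the same order with CDS length removed. Lipa, the lysosomal acid lipase, had log2 differences of 0.64 in males and 0.83 in females, and Cd36, a scavenger receptor for oxidized lipids, stood at 951 RPM in control and 793 RPM after CS in male α7G, 948 and 818 RPM in female α7G, 597 and 1049 RPM in male α7E260A:G, and 616 and 1091 RPM in female α7E260A:G. Bhlhe41, Cd36 and Mcoln3 kept this class with CDS length removed, and Cd36 and Mcoln3 kept it under TMM scaling. The AM markers summed to 25442 and 33161 RPM in male α7G control and CS, 33906 and 38755 RPM in female α7G, 43613 and 60306 RPM in male α7E260A:G and 72378 and 79552 RPM in female α7E260A:G, so that they were higher after CS in all 4 pairs. The part of these cells was not tested.

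Cxcl16 and Clec12a formed the class lower after CS in α7E260A:G and within 1.2-fold of the control in α7G. Cxcl16, a membrane-bound chemokine for T cells, stood at 32.7 RPM in control and 28.9 RPM after CS in male α7G, 23.2 and 21.8 RPM in female α7G, 35.1 and 15.2 RPM in male α7E260A:G, and 43.6 and 20.4 RPM in female α7E260A:G. Clec12a, an inhibitory lectin of myeloid cells, stood at 84.9 RPM in control and 75.1 RPM after CS in male α7G, 49.6 and 51.4 RPM in female α7G, 77.5 and 49.0 RPM in male α7E260A:G, and 134 and 70.9 RPM in female α7E260A:G. Both α7E260A:G controls exceeded their CS libraries, while in α7G both pairs of Cxcl16 and the male pair of Clec12a were lower after CS by less than 1.2-fold. edgeR called no difference for either (adjusted p = 0.997 for Cxcl16 and for Clec12a). Both kept this class under TMM scaling, but neither did with CDS length removed. The male α7G log2 response was then -0.55 for Cxcl16 and -0.49 for Clec12a, beyond 1.2-fold. Their log2 differences in males and females were then -0.86 and -0.89 for Cxcl16 and -0.38 and -0.91 for Clec12a. Cd74, the invariant chain of MHC class II, was lower after CS in both α7E260A:G sexes, at 5051 RPM in control and 4422 RPM after CS in male α7G, 3253 and 4191 RPM in female α7G, 2952 and 1379.8 RPM in male α7E260A:G, and 3705 and 1849 RPM in female α7E260A:G. Its log2 difference was -0.91 in males and -1.37 in females. The MHC class II chains H2-Aa, H2-Ab1 and H2-Eb1 had been left out by name from the tested set, and their α7E260A:G RPM after CS were likewise under those of the controls in both sexes. The 17 dendritic cell markers summed to between 768 and 1148 RPM in α7G and between 780 and 971 RPM in α7E260A:G, with the CS library the lower one of every pair.

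**Figure D3:**
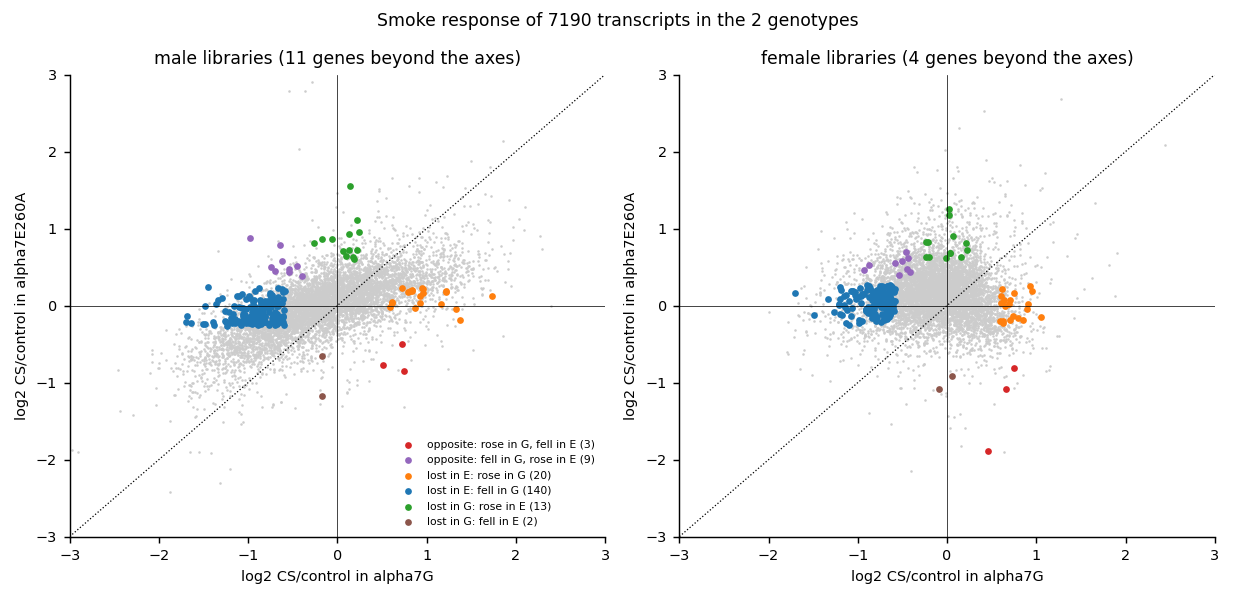
log2 ratio of CS to control in α7E260A:G (vertical) against α7G (horizontal) for the 7190 transcripts (grey), in males and in females, with the members of the 6 classes coloured and the dotted line marking equal responses. The 140 transcripts lower after CS in α7G and within 1.2-fold in α7E260A:G form a band at the left near 0 on the vertical axis in both panels.

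The values next to the thresholds were as follows. The member of the opposite class closest to its limit was Tapt1, at -0.40 and -0.53 in α7G and 0.38 and 0.40 in α7E260A:G (log2, male and female), and the nearest transcript outside was Ccdc66, at -0.98 and -0.75 in α7G and 0.38 and 0.49 in α7E260A:G, which fell short in the male α7E260A:G value. Isg15 lay just outside the reverse pattern, with 0.36 and 0.44 in α7G and -0.60 and -0.49 in α7E260A:G. Cd36 lay just inside the class lost in α7G and C77080 just outside, and Atp11b and Fam179a marked the limit of the 140.

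The classes differed in CDS length, as did the responses over all transcripts. Over all transcripts the difference of the responses was larger by 0.25 per doubling of CDS length in males (r = 0.53 across genes) and by 0.30 in females (r = 0.56). In the tenth of transcripts with the shortest CDS, median 444 nucleotides, the median difference was -0.43 in males and -0.46 in females. In the tenth with the longest, median 5359 nucleotides, it was 0.55 and 0.76. With the dependence removed, 2 transcripts outside the 12 above had opposite responses (Relb, an NF-κB subunit, and Psme2, a proteasome activator), 39 were lost in α7E260A:G and 11 in α7G. Genes are not independent replicates, so these slopes are descriptions.

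**Figure D4:**
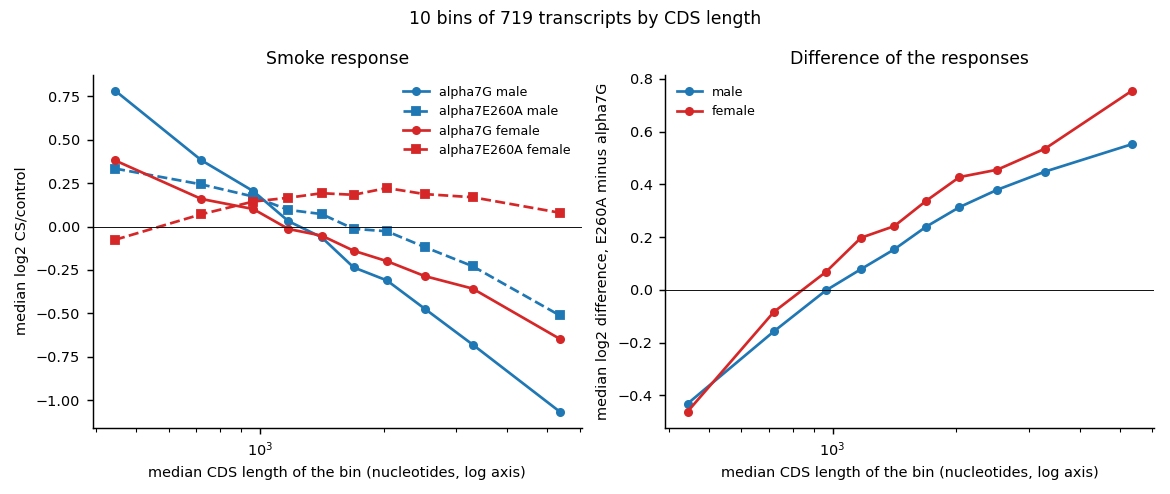
Median log2 ratio of CS to control (left) and median log2 difference of the responses, α7E260A:G minus α7G (right), in 10 bins of 719 transcripts by CDS length (horizontal, log axis). The difference runs from -0.43 to 0.55 in males (blue) and from -0.46 to 0.76 in females (red) from the shortest to the longest bin.

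Gene lists were described by the median difference and by the number of members with the same sign in both sexes. Over all 7190 transcripts, 55.6% had the higher response in α7E260A:G in both sexes and 19.2% the lower one. After removal of CDS length these shares were 32.8% and 30.2%, and under TMM scaling 37.2% and 32.6%.

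Most nuclear-encoded respiratory chain transcripts had a lower CS response in α7E260A:G in both sexes, while the median of the mitochondrially encoded ones differed in sign between the sexes. Of 33 complex I subunits 30 were lower in both sexes, with a median of -0.69, and of 34 other nuclear-encoded subunits 28 were lower, with a median of -0.73. With CDS length removed, 25 and 23 were lower, with medians of -0.29 and -0.27. Of 7 mitochondrially encoded transcripts tested, 0 were lower and 2 higher in both sexes, with a median of 0.35 (-0.15 in males and 0.86 in females). With CDS length removed their median was 0.25 (-0.27 in males and 0.77 in females). On that scale the complex I median was -0.36 in males and -0.35 in females. Ndufb2, an accessory subunit of complex I, stood at 31.5 RPM in control and 83.0 RPM after CS in male α7G, 37.1 and 77.3 RPM in female α7G, 30.6 and 37.7 RPM in male α7E260A:G, and 73.7 and 61.2 RPM in female α7E260A:G. The α7G libraries were higher after CS in both sexes, and the α7E260A:G pair was higher in males and lower in females. The complex I CDS had a median of 453 nucleotides, and no member of the 3 lists belonged to a class.

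More interferon-stimulated genes had a lower than a higher response in α7E260A:G under RPM, TMM scaling and CDS length removal. Of 28 tested, 15 were lower in both sexes and 3 higher, with a median of -0.26. Under TMM scaling 23 were lower, and with CDS length removed 22, with a median of -0.44. The sum of the list went from 4912 to 6291 RPM with CS in male and from 5139 to 6349 RPM in female α7G, and from 4932 to 4436 RPM in male and from 8582 to 6115 RPM in female α7E260A:G, whose control was the highest of the 8 libraries. In the male libraries, which do not include that control, the median was -0.27, and in the female ones -0.45. Its part in the counts over both sexes was not tested. Ifitm3, which blocks entry of viruses, stood at 182 RPM in control and 396 RPM after CS in male α7G, 167 and 291 RPM in female α7G, 207 and 158 RPM in male α7E260A:G, and 302 and 272 RPM in female α7E260A:G. Its counts can be shared with the closely related Ifitm members. Isg15, a ubiquitin-like protein, stood at 18.0 RPM in control and 23.3 RPM after CS in male α7G, 22.1 and 30.1 RPM in female α7G, 20.2 and 13.2 RPM in male α7E260A:G, and 39.3 and 27.9 RPM in female α7E260A:G. Both were higher after CS in α7G and lower in α7E260A:G in both sexes. Their log2 differences with CDS length removed, in males and females, were -1.07 and -0.51 for Ifitm3 and -0.60 and -0.58 for Isg15. The log2 difference of Xaf1, a pro-apoptotic interferon target, was -0.83 in males and -0.71 in females. The 26 NK and cytotoxic markers had 16 members tested, of which 10 were lower in both sexes with a median of -0.25. Their sum was 1567 and 1257 RPM in male and 2998 and 1678 RPM in female α7E260A:G control and CS, and 1880 and 2245 RPM in male and 2892 and 2320 RPM in female α7G.

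The promoters of Isg15 and Ifitm3 are shown because both transcripts are among the members with the widest differences in this list. The letters GAAA followed by any 2 bases and GAAA again, the core of the interferon-stimulated response element, were searched on both strands in 300 bases of promoter (250 before and 50 after the start, RefSeq, GRCm38.p6). They were found in 12 of the 23 tested list genes with a promoter, in 3.86% of the 5291 tested genes with a promoter and in 3.44% of all 32851 promoters. The matches are capitalized, and the promoter of Xaf1 held none. Isg15 is at chr4:156200769-156201068 on the minus strand and Ifitm3 at chr7:141010695-141010994 on the minus strand.
Isg15: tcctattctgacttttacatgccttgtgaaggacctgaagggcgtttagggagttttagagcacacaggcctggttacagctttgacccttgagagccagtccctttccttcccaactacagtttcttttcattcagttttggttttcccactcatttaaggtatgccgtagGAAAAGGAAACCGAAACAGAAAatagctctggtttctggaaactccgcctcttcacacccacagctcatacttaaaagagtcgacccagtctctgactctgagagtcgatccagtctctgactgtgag
Ifitm3: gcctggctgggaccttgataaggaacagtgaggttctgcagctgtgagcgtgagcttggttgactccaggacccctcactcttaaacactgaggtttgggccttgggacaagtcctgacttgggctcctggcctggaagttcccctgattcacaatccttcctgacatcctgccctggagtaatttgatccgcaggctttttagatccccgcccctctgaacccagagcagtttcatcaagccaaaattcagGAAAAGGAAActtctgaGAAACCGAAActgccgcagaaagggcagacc

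Lysosomal transcripts had a higher response in α7E260A:G in both sexes in 33 of 39 members on the RPM scale, against 55.6% of all transcripts. Their median was 0.28, against 0.25 over all transcripts. With CDS length removed 21 of 39 were higher in both sexes, against 32.8%, with a median of 0.10. Under TMM scaling 18 were higher and 9 lower, against 37.2% and 32.6%. Npc1, a lysosomal cholesterol exporter, had 0.84 in males and 0.79 in females, and 0.37 and 0.22 in the same order with CDS length removed. Both CS levels of Npc1 were under the controls in α7G and at or above them in α7E260A:G. The E-box letters CACGTG, the core of the CLEAR element and of circadian E-boxes, were found in 9 of 30 lysosomal and 4 of 9 clock genes with a promoter, in 12.5% of the 5291 tested genes with one and in 7.15% of all promoters. Of the members, 3 of 11 in the class higher after CS in α7E260A:G and lost in α7G held them, and 0 of 7 in the class lower in α7G and higher in α7E260A:G. In the classes lost in α7E260A:G, the E-box letters were in 3 of 15 genes higher and 10 of 100 lower after CS in α7G. The remaining classes, with 1 and 2 genes that had a promoter, held them in 0. The promoters of Bhlhe41 and Mcoln1, members that were higher after CS in α7E260A:G, each held them. Bhlhe41 is at chr6:145865371-145865670 on the minus strand and Mcoln1 at chr8:3500269-3500568 on the plus strand (GRCm38.p6).
Bhlhe41: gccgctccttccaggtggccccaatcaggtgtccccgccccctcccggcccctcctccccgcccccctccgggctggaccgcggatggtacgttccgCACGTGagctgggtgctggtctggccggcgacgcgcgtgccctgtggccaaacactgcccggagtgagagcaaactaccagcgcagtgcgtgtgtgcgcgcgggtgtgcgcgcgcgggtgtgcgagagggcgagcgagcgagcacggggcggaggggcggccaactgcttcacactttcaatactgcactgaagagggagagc
Mcoln1: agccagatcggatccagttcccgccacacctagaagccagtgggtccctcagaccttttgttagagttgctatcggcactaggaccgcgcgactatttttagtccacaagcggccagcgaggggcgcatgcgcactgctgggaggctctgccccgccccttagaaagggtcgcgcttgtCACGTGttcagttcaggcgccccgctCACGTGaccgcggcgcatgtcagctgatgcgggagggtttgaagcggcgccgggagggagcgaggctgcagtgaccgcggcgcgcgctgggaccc

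Other lists differed between the sexes. The 14 neutrophil markers tested had medians of 0.85 in males and -0.61 in females, the 16 club and airway secretory markers -0.65 and 0.65, and the 5 fibrillar collagens -0.05 and 1.36. Of the collagens Col1a1 had log2 differences of -0.25 in males and 1.27 in females and Col3a1 of 0.22 in males and 1.61 in females. No direction can be given for these lists over both sexes. Of 30 tested transcripts that the study names from its RNA-Seq, 9 had the higher and 8 the lower response in α7E260A:G in both sexes. The sexes differed in sign for 13. Over all transcripts, 55.6% had the higher and 19.2% the lower response in both sexes. Scgb1a1, the main secretory protein of club cells, had log2 differences of -1.25 in males and -0.60 in females, Bpifa1, an antimicrobial protein of airway fluid, of 1.02 in males and 0.85 in females, and Ccl5, a chemokine of cytotoxic lymphocytes, of -0.97 in males and -1.07 in females. Removal of CDS length gave differences in males and females of -0.64 and 0.05 for Scgb1a1, where the female sign turned, 1.10 and 0.87 for Bpifa1 and -0.33 and -0.39 for Ccl5. Those of the collagens were then -0.76 and 0.66 for Col1a1 and -0.29 and 1.00 for Col3a1, where the male sign turned for Col3a1.

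**Figure D5:**
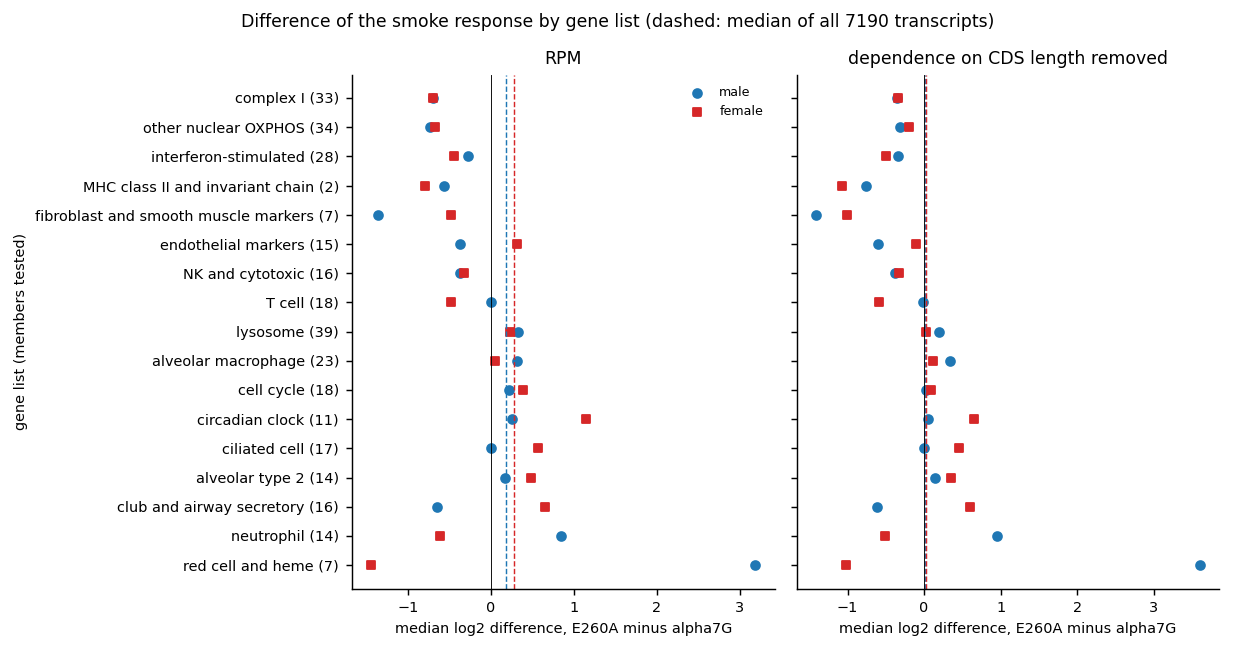
Median log2 difference of the CS response, α7E260A:G minus α7G, for 17 gene lists (members tested in parentheses) in males (blue circles) and females (red squares), on the RPM scale (left) and with the dependence on CDS length removed (right). Dashed lines are the medians of all 7190 transcripts, 0.18 in males and 0.28 in females on the left. Complex I, other nuclear subunits and interferon-stimulated genes lie to the left of the dashed lines in both sexes and both panels. The same holds for the MHC class II, fibroblast and smooth muscle, NK and cytotoxic, and T cell lists.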

How the data were processed

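The authors deposited raw counts of reads on the coding sequence of 22756 genes in each of 8 libraries, without normalization. They aligned the reads with STAR to mm9 and counted them with HTSeq on GENCODE annotation, both named in the submitters' processing notes and the methods, with versions not given in the sources used here. Transcripts with a mean count of at least 200 were kept after 188 immunoglobulin, histocompatibility, Gm and ribosomal subunit genes had been left out by name, which left 7190. RPM used total CDS counts, and ratios added 0.5 RPM. Interactions were fitted with edgeR 4.0.16 (R 4.3.3, glmQLFit and glmQLFTest, TMM) on 4 groups, with DESeq2 1.42.0 as an alternative. The dependence on CDS length was taken out with lowess (span 0.667) per library. Class thresholds, gene lists (38) and members were chosen with earlier results of these data known. Named transcripts were the 5 largest per class, the 10 highest and lowest coefficients, up to 4 members per list, transcripts called under an alternative and those the study names. Tspo, Btla, Xiap, Dusp16, Mtx1, C1ra, Alas2, Hbb-b1, Relb, Psme2 and the transcripts next to a threshold were named after their values were seen. One pseudocount alternative for lists was added after the data were examined. 1 list member that the rule named is not reported here. Sequences were read from RefSeq promoters, matched by symbol for 5291 tested genes. The limit given for Chrna7 covers counting error only.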

Additional observations from a re-analysis of the deposited data

Results flagged for a closer look

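The 12 opposite-response transcripts were marked because both library pairs of one genotype moved one way with CS and both pairs of the other the opposite way. The log2 difference of the response, α7E260A:G minus α7G and averaged over the sexes, was 1.15 for Mxi1, 1.16 for Zfp326, 1.45 for Osbpl3, 1.21 for Cdkl2, 1.19 for Wdr78, 1.05 for Ncoa4, 1.18 for Ly75, 1.03 for Pdk1 and 0.855 for Tapt1. It was -1.67 for Ifi27l2a, -1.42 for S100a4 and -1.79 for Ly6c2. These differences were not tested beyond the fit across all transcripts, in which edgeR called none of them. Groups of 2 libraries are too small for a search for a library far from its group.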

How the results depend on the processing

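The count of 0 interactions held with library size scaling, DESeq2's size factors, the CDS length offset, filterByExpr and no filter, and when any library was left out (0 to 0), while DESeq2 called 3. Without the male α7E260A:G control, 1636 transcripts passed 0.05 unadjusted, with 0.0851 as the smallest adjusted p. A replicate block for sex gave 0 calls (221 unadjusted), and 0 together with the length offset (354). In each group the deviation of the male library from its group mean was taken for every transcript. Between groups these deviations correlated across transcripts at -0.0494 to 0.836, with 1 of 6 under 0.1. With CDS length removed they correlated at 0.0764 to 0.667. The main fit did not use sex as a pairing, so differences shared by libraries of a sex count in its spread. Classes and list medians compare libraries within a sex by rule. Opposite responses numbered 2 with CDS length removed, 82 under filterByExpr, 1 at 2-fold and 1.5-fold thresholds, and 69 to 495 in 1 sex alone. Responses lost in α7E260A:G numbered 39, 267, 15 and 701 to 955 in the same order. Those lost in α7G numbered 6 under TMM scaling, 51 under filterByExpr, 2 at the stricter thresholds and 111 to 360 in 1 sex. With single libraries left out, edgeR log2 differences ran from -2.65 to 0.54 for Sfta2, from -2.91 to 0.012 for Wfdc10, from -5.56 to 0.19 for AI324046 and from -6.54 to 12.4 for Y-linked Kdm5d, changing sign without the female α7E260A:G control (the first 3) and without the male α7G control or the male α7E260A:G CS library (Kdm5d, -6.48 in the latter). The cause was not tested. Of 688 combinations of 43 named transcripts and alternatives, 680 kept direction and side, 3 became calls (DESeq2) and 5 changed sign. Of 38 list medians, 9 changed sign under TMM scaling, 5 with CDS length removed and 0 with 5 RPM added. Precision rests on 2 libraries per group.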

Other observations

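Of the 38 lists, red cell transcripts had the widest split between the sexes. The difference of the response for Alas2, the first enzyme of heme synthesis in red cell precursors, was 5.06 in males and -0.52 in females, and that of Hbb-b1, a β-globin, was 3.32 and -1.79. The 12 red cell and heme genes summed to 9535 RPM in the male α7E260A:G library after CS and to between 274 and 2302 RPM in the other 7.

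Among the highest differences with the same sign in both sexes were Cxcr1, a receptor for neutrophil chemokines (2.56 in males and 1.92 in females), Ear6, an eosinophil-type ribonuclease (2.88 and 2.07), and the ciliary transcripts Cep290 (1.47 and 2.08) and Rsph4a (1.11 and 2.14). Among the lowest were H2afj, a histone variant (-2.40 and -1.78), Spon1, an extracellular matrix protein (-2.07 and -1.29), and Fabp1, a fatty acid binding protein (-1.24 and -1.96). The others by the same rule were Bpgm, Dnahc12, mt-Nd6, Cpeb4 and Wdr96 at the high end and AI324046, Ly6c2, 2010001M09Rik, Hr, Ifi27l2a, Inmt and Mfap4 at the low end. The rule also took in Y-linked Kdm5d, which had 0 or 1 counts in each female library, so that its female value rests on the 0.5 RPM added and is no measured difference. edgeR called none of these transcripts. The differences of Cep290 and Rsph4a were smaller in both sexes with CDS length removed. The ciliated cell markers had 17 members tested, of which 9 had the higher response in α7E260A:G in both sexes and 3 the lower one. Over all transcripts the higher share was 55.6%, and 32.8% with CDS length removed. The list medians were 0.006 in males and 0.57 in females, against 0.18 and 0.28 over all transcripts. Removal of CDS length left 9 higher and 2 lower, with medians of 0.004 and 0.45.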
